A study of Mus musculus with 24 samples.

Results

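The 8 genes described here are Lrp8, a lipoprotein receptor, and 7 genes of cholesterol synthesis and its control: Hmgcs1, Idi1, Fdps, Fdft1, Sqle, Srebf2 and Insig1. They are 8 of the 55487 genes in the deposited tables and were found by matching gene identifiers to symbols. Lrp8 was selected on its higher level in KO than in WT colon at day 7 in these same libraries, and the cholesterol genes were chosen beside it. KO against WT at day 7, and every comparison of Lrp8 with the KO libraries of day 7, are therefore given as descriptions without a test, and other results that use the day 7 libraries share them with the choice. All 8 genes passed the filter on low counts in every fit.

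Cholesterol is built from acetyl-CoA through mevalonate, farnesyl diphosphate and squalene. When membranes of the endoplasmic reticulum are low in sterols, SREBP-2 is cut free and switches on the genes of this route, and INSIG proteins hold it back when sterols are plentiful. Dividing and regenerating epithelium needs cholesterol for new membranes, and the gut is a large site of its synthesis. LRP8, also called ApoER2, is a lipoprotein receptor of the cell surface and binds reelin, apolipoprotein E and selenoprotein P.

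Messenger RNA was sequenced from whole colon and from colorectal tumours of C57BL/6 mice, with 3 libraries in each of 8 groups, or 18 colon and 6 tumour libraries. KO mice lack Axin1, which holds together the machinery that degrades beta-catenin, in intestinal epithelial cells, and WT mice are wild type at Axin1. In each genotype, colon came from untreated mice and from mice given dextran sulfate sodium (DSS), which injures the colonic epithelium, killed at day 7 or day 13, and tumours came from mice given the carcinogen azoxymethane with DSS (AOM/DSS). The sources used here do not name the recombinase, its promoter, the age of the mice or the doses. The tissue was washed and extracted whole, so cells other than epithelium, in which Axin1 was not targeted, contributed RNA, and fewer cells of a type cannot be told apart from less RNA per cell.

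Libraries held 15.65 M to 28.07 M expected counts in all (median 23.64 M). Axin1 read 13.5 to 19.7 CPM (counts-per-million on TMM-scaled totals) in the KO libraries, against 47.4 to 58.8 CPM in the WT libraries, without overlap in any condition. Epithelial markers summed to 10440 to 17740 CPM in colon and 5425 to 12180 CPM in tumours, and smooth muscle markers to 2273 to 12900 CPM in colon and 142 to 318 CPM in tumours. The labels give no sex. All 3 KO libraries of day 13 had Xist with Ddx3y at or near 0 and all 3 WT libraries of day 13 had 31.0 to 38.1 CPM of the Y-linked Ddx3y, so sex and genotype cannot be told apart at day 13. Untreated KO libraries all carried Ddx3y and WT libraries of day 7 all lacked it, so sex also moves with time in day 13 against untreated KO colon and in day 13 against day 7 WT colon. At day 7, 1 of 3 KO and 0 of 3 WT libraries carried Ddx3y, against 3 of 3 KO and 2 of 3 WT libraries of untreated colon, so sex shifts in day 7 against untreated colon as well. Sex also shifts in day 13 against day 7 KO colon, where replicate 1 of day 7 alone carried Ddx3y, and in day 13 against untreated WT colon. KO replicate 3 of untreated colon stood apart with 23630 CPM of absorptive colonocyte markers, where the other untreated libraries had 6010 to 9538 CPM. KO replicate 1 and WT replicate 3 of day 13 had 1175 and 5155 CPM of squamous epithelium markers, where the other colon libraries had at most 7.10 CPM. Main results are given with and without these 3 libraries where that changes a call.

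Promoter sequences of RefSeq on GRCm38.p6, covering 250 bases before to 50 after a start site, were at hand for 5 of the 8 genes. They are given as description, and no link between their letters and the levels of the genes was tested. Both strands were searched for TCACCCCA, a core of the sterol regulatory element to which SREBP proteins bind, for the E-box CACGTG and for CCAAT, and matches stand in capitals (a CCAAT on the opposite strand reads ATTGG). The windows are chr4:107802635-107802934 for the first of 3 listed Lrp8 starts, chr13:119690101-119690400 for Hmgcs1, chr15:82147019-82147318 for Srebf2 and chr5:28071162-28071461 for Insig1, all on the plus strand.
Lrp8: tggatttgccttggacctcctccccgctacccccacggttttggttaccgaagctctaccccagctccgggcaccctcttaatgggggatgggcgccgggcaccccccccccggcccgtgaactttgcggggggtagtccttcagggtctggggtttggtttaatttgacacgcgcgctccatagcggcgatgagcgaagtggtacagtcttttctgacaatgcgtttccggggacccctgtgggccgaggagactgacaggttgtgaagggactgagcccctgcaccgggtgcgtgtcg
Hmgcs1: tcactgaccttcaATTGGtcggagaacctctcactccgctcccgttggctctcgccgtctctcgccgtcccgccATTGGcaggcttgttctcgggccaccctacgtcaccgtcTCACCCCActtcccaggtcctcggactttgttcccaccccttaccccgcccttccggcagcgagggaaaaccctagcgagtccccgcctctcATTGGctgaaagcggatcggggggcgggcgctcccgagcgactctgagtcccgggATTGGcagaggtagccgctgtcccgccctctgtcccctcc
Srebf2: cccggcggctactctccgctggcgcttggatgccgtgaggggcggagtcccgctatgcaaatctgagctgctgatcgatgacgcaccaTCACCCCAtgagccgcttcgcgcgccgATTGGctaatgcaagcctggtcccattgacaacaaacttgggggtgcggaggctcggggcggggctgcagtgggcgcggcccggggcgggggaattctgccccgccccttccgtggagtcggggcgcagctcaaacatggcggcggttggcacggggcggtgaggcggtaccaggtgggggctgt
Insig1: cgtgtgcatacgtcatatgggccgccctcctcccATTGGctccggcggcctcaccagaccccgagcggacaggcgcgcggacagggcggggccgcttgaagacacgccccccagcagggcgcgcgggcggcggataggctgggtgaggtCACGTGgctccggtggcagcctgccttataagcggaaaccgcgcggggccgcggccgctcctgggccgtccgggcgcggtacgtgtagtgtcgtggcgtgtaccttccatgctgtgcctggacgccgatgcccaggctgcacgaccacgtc
TCACCCCA began at base 114 of the Hmgcs1 window and at base 89 of the Srebf2 window, and 1.56% of the 32851 windows in the table hold it. The Insig1 window held CACGTG at base 150, as do 7.15% of all windows. CCAAT was found 4 times in the Hmgcs1 window, 1 time each in the Srebf2 and Insig1 windows and 2 times in that of Idi1 (chr13:8885356-8885655), and 37.4% of all windows hold it. None of the 3 Lrp8 windows held these letters, which says nothing of regions outside them. The motifs do not overlap each other in these windows.

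Lrp8 was a gene of low level. Over the 24 libraries its deposited TPM (transcripts-per-million, a level scaled by gene length) averaged 5.92 and ran from 0.68 to 17.4. On the same scale Hmgcs1 averaged 167 TPM, Fdps 160, Srebf2 110, Fdft1 82.0, Idi1 79.0, Insig1 75.9 and Sqle 74.5. Of the 8 genes Lrp8 also varied most, with an SD of log2(CPM + 1) of 1.39 over the libraries, against 0.30 for Srebf2 and 0.53 to 0.68 for the other 6 genes.

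Lrp8 (ENSMUSG00000028613, chr4:107802261-107876840, plus strand, protein coding) had 3.07, 2.40 and 5.05 CPM in untreated KO colon and 2.60, 2.45 and 3.02 CPM in untreated WT colon. At day 7 it had 39.0, 19.8 and 23.5 CPM in KO and 17.2, 14.2 and 17.9 CPM in WT. Every day 7 library of either genotype lay above every untreated library. At day 13 it had 2.91, 3.77 and 3.99 CPM in KO and 15.2, 11.3 and 7.93 CPM in WT. The KO libraries of day 13 lay within the range of the untreated libraries, and the WT libraries of day 13 lay above it. Tumours had 42.0, 34.1 and 41.6 CPM in KO and 28.6, 31.9 and 48.3 CPM in WT, and these ranges overlapped.

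Ordered by group mean, Lrp8 stood highest in KO tumours (39.2 ± 4.44 CPM, SD, n = 3 here and below) and WT tumours (36.3 ± 10.6), followed by day 7 KO colon (27.4 ± 10.2), day 7 WT colon (16.4 ± 1.97), day 13 WT colon (11.5 ± 3.65), day 13 KO colon (3.56 ± 0.57), untreated KO colon (3.51 ± 1.38) and untreated WT colon (2.69 ± 0.30). Libraries of neighbours in this order overlapped, except between day 7 KO and day 7 WT colon and between day 13 WT and day 13 KO colon.

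**Figure D1:**
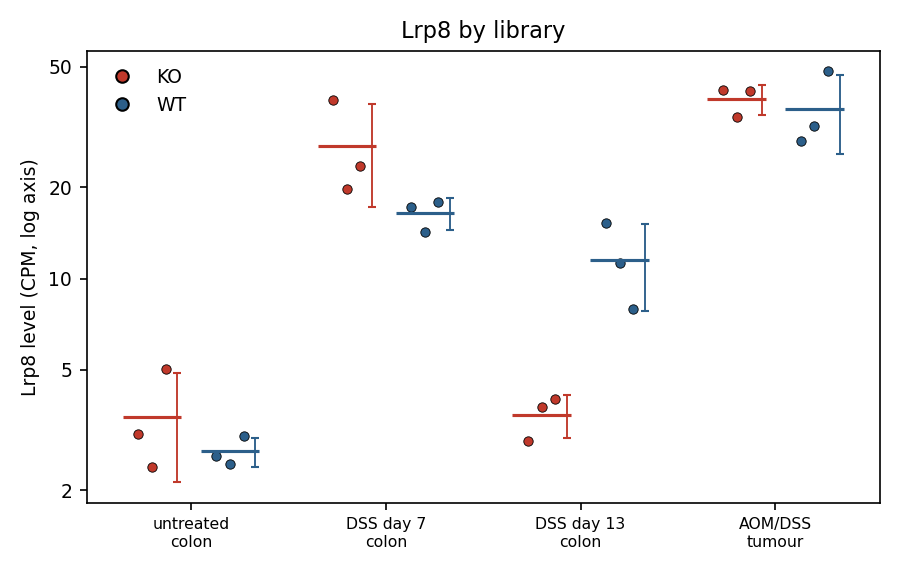
Lrp8 level in CPM on a log axis for each library (points), with the group mean (line) and SD (bar) of 3 libraries, KO left of WT in each condition. KO colon is at 19.8 CPM or more at day 7 and at 3.99 CPM or less at day 13, while WT colon of day 13 stays at 7.93 CPM or more.

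With DSS, Lrp8 rose at day 7 in WT colon, and of the 7 cholesterol genes Srebf2 alone, which encodes SREBP-2, passed as higher in each genotype. In WT colon Lrp8 was higher at day 7 than in untreated colon by 2.55 ± 0.32 on the log2 scale (SE, adjusted p = 0.000677), or 6.11-fold by means. The WT libraries of day 7 were used in the choice of Lrp8, so this p-value is not independent of it. In KO colon the difference was 2.97 ± 0.32, or 7.83-fold, and carries no test. Srebf2 was higher by 0.65 ± 0.14 in KO (adjusted p = 0.00826) and by 0.45 ± 0.14 in WT (adjusted p = 0.045). Adjusted p-values are from edgeR's quasi-likelihood test with Benjamini-Hochberg adjustment over all genes tested, with a threshold of 0.05. So 1 of the 7 cholesterol genes passed in KO, where 12.6% of all 18102 tested genes passed and 8.57% were higher, and 2 of 8 passed in WT, where 16.3% passed and 8.52% were higher. Apart from Lrp8, 1 of 7 passed in each genotype, near the share of all genes, so the count says little of the 7 as a set. Of 10 other genes of SREBP control, 1 was higher and 1 lower in KO, and 0 were higher and 2 lower in WT.

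Srebf2 (chr15:82147181-82205379) had 444, 398 and 455 CPM in day 7 KO colon, against 250, 256 and 324 CPM in untreated KO colon. It had 317, 388 and 412 CPM in day 7 WT colon, against 249, 269 and 271 CPM in untreated WT colon. Neither pair of groups overlapped, yet the rise in KO was called in 12 of 14 alternative analyses and that in WT in 5 of 14. Both were lost with Ddx3y as a covariate and without the 4 libraries whose Illumina sample number repeats within colon, and that in WT was also lost without WT replicate 2 or 3 of day 7 or any 1 of the 3 untreated WT libraries.

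The 5 enzymes and Insig1 did not pass at day 7 in either genotype. In KO colon their estimates ran from 0.46 for Insig1 to 1.06 for Fdps, with an adjusted p of 0.0688 or more, and in WT colon from -0.01 for Insig1 to 0.86 for Fdps, with an adjusted p of 0.163 or more. Libraries of day 7 lay wholly above those of untreated colon for 4 of the 7 cholesterol genes in KO and for 2 of the 8 genes in WT, where 18.8% and 18.7% of all genes did so. Untreated KO replicate 3 bore on this. It read 573 CPM of Hmgcs1, where the other untreated KO libraries read 285 and 241 CPM, and without it 5 of the 7 cholesterol genes passed in KO colon, namely Hmgcs1, Sqle, Fdps, Fdft1 and Srebf2. It is also the library with the high absorptive colonocyte markers. Markers of dividing cells summed to 764 to 1193 CPM in KO colon at day 7 and 178 to 543 CPM in untreated KO colon, without overlap, and those of T cells to 5.51 to 6.39 and 10.4 to 16.3 CPM. Neutrophil and squamous sums also lay wholly above untreated KO colon, and sums of endothelium, B and plasma cells and adipocytes wholly below. Ly6g made up most of the neutrophil sums, at 130.8 to 141.0 CPM at day 7 and 4.13 to 126.8 CPM untreated, and the other neutrophil markers were at 1.20 CPM or less. Squamous sums were at 4.06 CPM or less, with up to 4 markers at 0. Pck1 led the adipocyte sums, at 33.8 to 45.3 and 82.5 to 184.5 CPM, Cidec was also lower and Fabp4 overlapped. In WT colon, sums of macrophages and monocytes, neutrophils, T cells and squamous epithelium lay wholly above untreated colon at day 7, the squamous sums at 7.10 CPM or less. Adipocyte sums there lay wholly below, and dividing-cell sums overlapped. The lower adipocyte sum in WT came from Pck1, at 12.8 to 39.2 CPM at day 7 and 161 to 264 CPM in untreated colon. Fabp4 and Cidec overlapped between these WT groups, and Adipoq, Plin1 and Lep were at 0.40 CPM or less (single genes here on totals without TMM scaling). The part of these cells in the result was not tested.

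At day 7 KO was above WT by 0.77 ± 0.30 for Lrp8 on the log2 scale (SE), and the other 7 genes were above WT by 0.21 (Fdft1) to 0.52 (Hmgcs1). KO and WT libraries overlapped for those 7 genes and not for Lrp8, and KO lay wholly above WT in 12.2% of all genes. WT libraries of day 7 were far apart for the enzymes. Hmgcs1 had 645, 733 and 593 CPM in KO, against 368, 274 and 764 CPM in WT, and WT replicate 3 was the highest of the 24 libraries for Hmgcs1, Sqle, Fdps and Insig1. WT replicate 2, the lowest of the 3 WT libraries for those genes, held 12900 CPM of smooth muscle markers, and their part in the spread was not tested.

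From day 7 to day 13 most of the cholesterol genes fell in KO colon. Of the 7 genes 6 were lower at day 13 than at day 7, where 12.8% of all genes changed and 8.61% were lower, and Idi1 did not pass. The median change of the 7 genes was -1.52 on the log2 scale, against 0.02 for all genes tested. In WT colon 0 of 8 passed in the same comparison (0 at an unadjusted p under 0.05, 0 with DESeq2), and 0.0608% of all genes did. The difference between the genotypes in this change was not tested, because it contains KO against WT at day 7.

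Markers of other cells also differed between the same groups. In KO colon, markers of dividing cells summed to 275 to 460 CPM at day 13, against 764 to 1193 CPM at day 7, and markers of absorptive colonocytes to 8878 to 9559 CPM, against 5972 to 6495 CPM. Adipocyte markers summed to 125 to 177 CPM at day 13, against 46.5 to 56.5 CPM at day 7, and neutrophil markers to 183 to 262 CPM, against 139 to 156 CPM. Of the adipocyte markers the fat cell genes Adipoq, Plin1 and Lep were at 0 in all 3 libraries of day 7, and Pck1, which other tissues also express, led the sum. Ly6g made up most of the neutrophil sum, at 175.1 to 220.5 CPM at day 13 and 130.8 to 141.0 CPM at day 7. Each of the other neutrophil markers overlapped between the days, at 4.58 CPM or less (these on totals without TMM scaling). The summed levels of these 4 lists did not overlap between the days, and their part in the fall of the cholesterol genes was not tested.

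For Lrp8 the difference of day 13 from day 7 in KO was -2.94 ± 0.32 on the log2 scale (SE), with a day 13 mean of 0.13 of the day 7 mean, and carries no test. In WT its estimate was -0.49 ± 0.30 (adjusted p = 0.433), and it rests on WT libraries of day 7 that were used in the choice. Hmgcs1 (chr13:119690379-119708260), which makes HMG-CoA, the precursor of mevalonate, had 175, 209 and 171 CPM in KO colon at day 13, against 645, 733 and 593 CPM at day 7. It fell by 1.82 ± 0.40 (adjusted p = 0.00683). In WT colon Hmgcs1 had 374, 660 and 285 CPM at day 13, against 368, 274 and 764 CPM at day 7, so the WT libraries of both days covered much the same range.

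Further down the route, Fdps (chr3:89093588-89101959), which makes farnesyl diphosphate, had 55.3, 51.0 and 68.2 CPM in KO colon at day 13, against 162, 184 and 199 CPM at day 7, and fell by 1.64 ± 0.42 (adjusted p = 0.0185). Idi1 (chr13:8885501-8892451), the isomerase that readies isopentenyl units for Fdps, had 78.9, 88.1 and 113 CPM at day 13, against 208, 259 and 223 CPM at day 7. Its estimate of -1.30 ± 0.41 missed the threshold (adjusted p = 0.0522) although the libraries did not overlap. Fdft1 (chr14:63145150-63179578), squalene synthase, had 71.6, 74.4 and 77.7 CPM at day 13, against 189, 210 and 244 CPM at day 7, and fell by 1.52 ± 0.31 (adjusted p = 0.00445). The end of Fdft1 overlaps Ctsb on the other strand, which had 270317 counts in all, against 88432 for Fdft1, and the strand setting of the counting is not given, so Fdft1 values are uncertain. Sqle (chr15:59315077-59331192), squalene epoxidase, a rate-limiting step, had 79.3, 80.3 and 79.9 CPM at day 13, against 234, 251 and 244 CPM at day 7, and fell by 1.60 ± 0.31 (adjusted p = 0.00332). The 3 KO libraries of day 13 were nearly equal for Sqle.

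The 2 regulators moved the same way as the enzymes. Srebf2 had 273, 219 and 220 CPM in KO colon at day 13, against 444, 398 and 455 CPM at day 7, and fell by 0.86 ± 0.14 (adjusted p = 0.00109). Insig1 (chr5:28071363-28078662), itself a target of SREBP proteins, had 49.5, 76.0 and 80.2 CPM at day 13, against 166, 200 and 176 CPM at day 7, and fell by 1.39 ± 0.40 (adjusted p = 0.0314). All 7 cholesterol genes had every KO library of day 13 below every KO library of day 7, which 20.7% of all genes did. In WT the libraries of both days overlapped for all 8 genes, and 14.3% of all genes did not overlap there in either direction.

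Hmgcs1, Sqle, Fdft1 and Srebf2 passed in KO in all 14 alternative analyses. Fdps was lost in 4 of them, among them without day 13 KO replicate 1, without day 13 KO replicate 2 and without day 7 KO replicate 3. Insig1 was called in 6 of 14 and was lost without any single library of either group. Without the 3 libraries that stood apart 5 of the 7 genes passed.

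**Figure D2:**
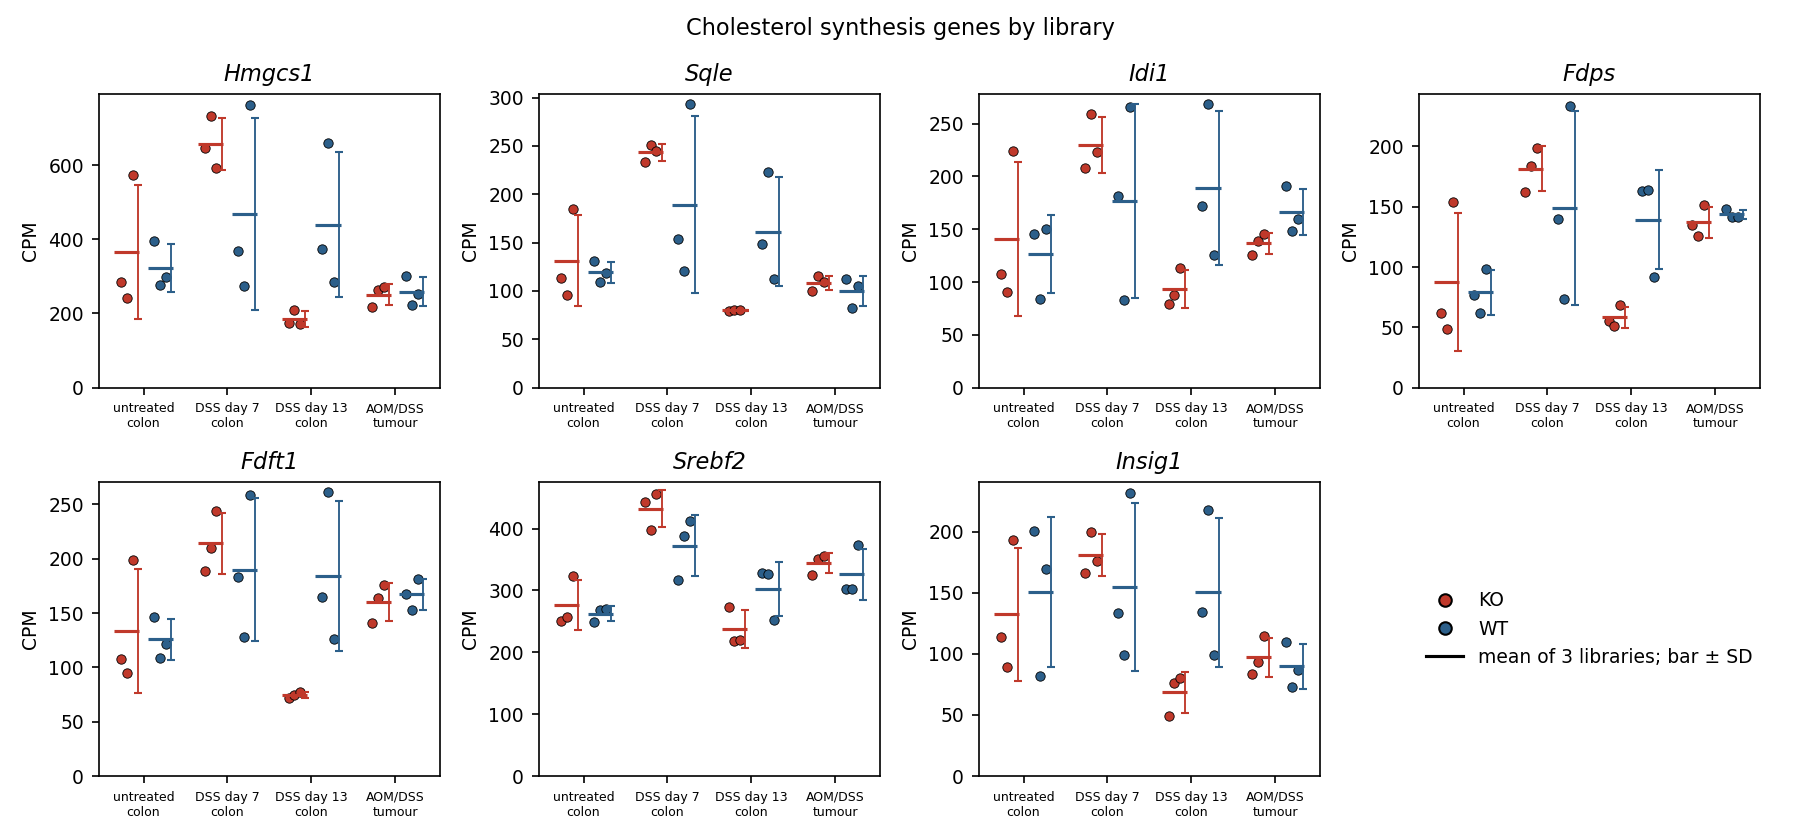
Levels in CPM of the 7 cholesterol genes in each library (points), with the group mean (line) and SD (bar) of 3 libraries, KO left of WT. For each of the 7 genes the mean is highest in KO colon at day 7 and lowest in KO colon at day 13. The WT libraries of both days are spread widely for the enzymes and Insig1, and less so for Srebf2.

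The rest of the route was counted in a list of 14 other enzymes. Of the 14, 9 were lower in KO colon at day 13 than at day 7 and 1 was higher, where 8.61% of all genes were lower and 12.8% changed in either direction, and the median over the 14 was -1.03 on the log2 scale. Lss, which closes squalene into lanosterol, fell by 2.06 ± 0.43 (adjusted p = 0.00552), Cyp51, which demethylates lanosterol, by 1.75 ± 0.38 (adjusted p = 0.00716), and Hsd17b7 by 1.62 ± 0.30 (adjusted p = 0.00256). The other 6 that were lower were Mvd, Msmo1, Mvk, Acat2, Nsdhl and Pmvk. Ggps1, which turns farnesyl diphosphate toward protein prenylation and away from sterols, was the enzyme that was higher, by 0.52 ± 0.14 (adjusted p = 0.0201). In WT colon 0 of the 14 passed (0 at an unadjusted p under 0.05, 0 with DESeq2) and the median was 0.05.

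Leaving out single libraries gave 4 to 6 lower enzymes in place of 9, with 4 without day 13 KO replicate 1, 2 or 3 and without day 7 KO replicate 2 or 3. Without the 3 libraries that stood apart 7 were lower. At day 7 against untreated KO colon 2 of the 14 were higher (Acat2 and Msmo1), where 8.57% of all genes were, and Ggps1 was lower. Without untreated KO replicate 3, 9 were higher, and none was higher when any other single library of these groups was left out. In WT colon 0 passed (4 at an unadjusted p under 0.05, 4 with DESeq2).

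**Figure D3:**
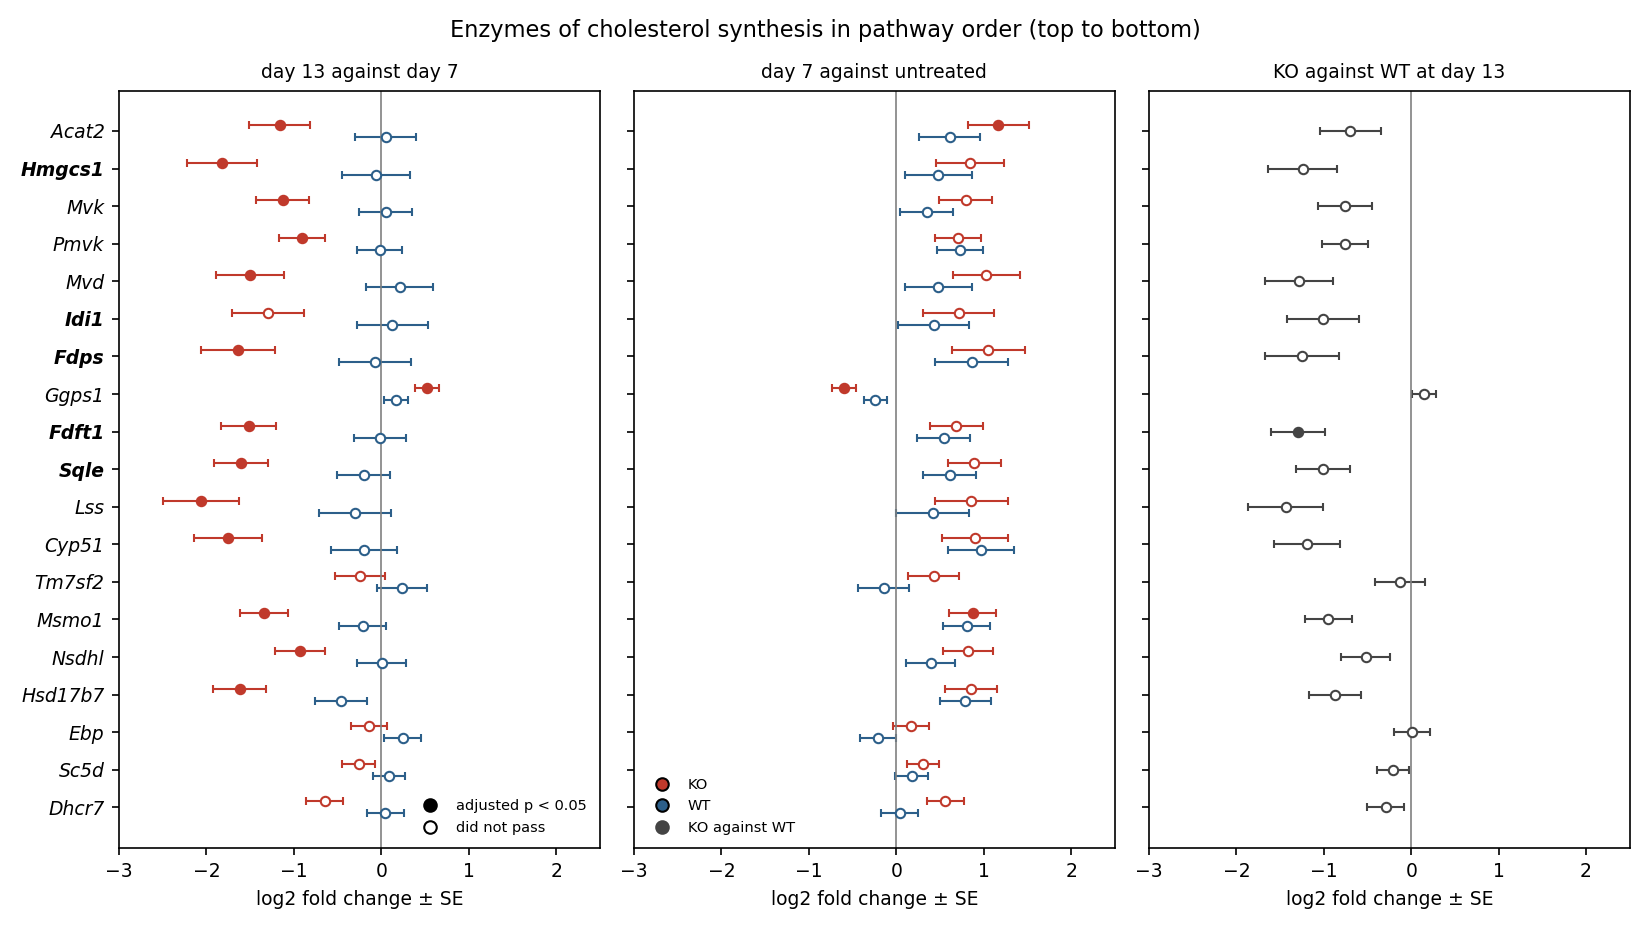
Log2 fold changes with SE (bars) of 19 enzymes of cholesterol synthesis in pathway order, with the 5 described here in bold and filled points for an adjusted p under 0.05. KO changes of day 13 against day 7 lie below 0 for all but Ggps1, the WT changes lie around 0, and of these enzymes Fdft1 alone passed between KO and WT at day 13.

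At day 13 KO colon was below WT colon in all 8 genes, and Lrp8 and Fdft1 passed the test. Lrp8 averaged 3.56 ± 0.57 CPM in KO libraries, against 11.5 ± 3.65 CPM in WT libraries, a log2 difference of -1.67 ± 0.31 (SE, adjusted p = 0.0163). Fdft1 averaged 74.6 ± 3.02 CPM in KO libraries, against 184 ± 69.4 CPM in WT libraries, a log2 difference of -1.30 ± 0.31 (adjusted p = 0.0396). Fdft1 values are uncertain here too, because of the overlap with Ctsb given above. So 2 of 8 genes were called, where 2.51% of all genes were called and 1.86% were lower. The other 6 had estimates from -0.34 for Srebf2 to -1.25 for Fdps with an adjusted p of 0.0952 or more, and all 8 had an unadjusted p under 0.05. KO libraries lay wholly below WT libraries for 7 of the 8 genes, all but Srebf2, where 12.3% of all genes did so.

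Of the 14 other enzymes of the route 0 passed between KO and WT at day 13 (7 at an unadjusted p under 0.05, 4 with DESeq2), 12 of them had estimates below 0, and the median was -0.73, against -0.02 for all genes tested.

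These calls at day 13 were not steady. Lrp8 was called in 7 of 14 alternative analyses, with an adjusted p from 3.1e-05 to 0.301, and Fdft1 in 4 of 14, from 0.0022 to 0.318. Neither passed with Ddx3y as a covariate, with only the day 13 groups in the fit, without the 3 libraries that stood apart, without WT replicate 1 or without any 1 of the 3 KO libraries. All signs stayed the same. Markers of other cells differed with the genotype at day 13. Markers of macrophages and monocytes, led by C1qa and Csf1r, summed to 30.2 to 56.4 CPM in KO and 91.5 to 204 CPM in WT over 8 genes, markers of fibroblasts, led by Col3a1 and Col1a2, to 401 to 693 CPM in KO and 993 to 2588 CPM in WT over 7 genes, and markers of absorptive colonocytes, led by Ceacam1 and Car1, to 8878 to 9559 CPM in KO and 5820 to 7423 CPM in WT over 7 genes. No marker of these 3 lists was at 0 in a day 13 library. Adipocyte markers summed to 125 to 177 CPM in KO and 67.0 to 124 CPM in WT over 6 genes, mostly from Pck1. Adipoq and Plin1 were at 0 in 1 library of each genotype and Lep at 0 in 2 of each. Fabp4 and Cidec overlapped between the genotypes and leaned the other way. Fabp4 had 9.72 to 15.4 CPM in KO and 13.5 to 26.5 CPM in WT, and Cidec 0.80 to 2.93 and 1.47 to 3.63 CPM (these on totals without TMM scaling). The part of these cells in the result was not tested.

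In KO colon Lrp8 at day 13 lay at the untreated level (difference 0.03 ± 0.31, adjusted p = 0.993), while in WT colon it was still higher by 2.06 ± 0.31 (adjusted p = 0.00735), or 4.26-fold. In KO 0 of the 8 genes passed (4 at an unadjusted p under 0.05, 0 with DESeq2), where 0.0276% of all genes did, and the 7 cholesterol genes had estimates from -0.21 for Srebf2 to -0.97 for Hmgcs1. Libraries of day 13 lay wholly below untreated ones for Hmgcs1, Sqle, Fdft1 and Insig1 in KO, or 4 of 8, where 8.44% of all genes did. In WT Lrp8 was the single call of 8, where 4.24% of all genes were called and 3.21% were higher, and it was also the single gene whose day 13 libraries lay wholly above the untreated ones, as 15.4% of all genes did. It was lost in 2 of 14 alternatives, with only the groups compared in the fit and without the 4 libraries whose Illumina sample number repeats within colon, at an adjusted p of up to 0.0522.

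The genotype difference at day 13 minus that in untreated colon was -2.03 ± 0.44 for Lrp8 and did not pass (adjusted p = 0.0777, from 0.00172 to 0.565 over 20 alternatives). The other 7 genes had estimates from -0.39 to -1.40, with an adjusted p of 0.187 or more. In this test 0 of 8 passed (5 at an unadjusted p under 0.05, 1 with DESeq2), and 0.011% of all genes did.

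**Figure D4:**
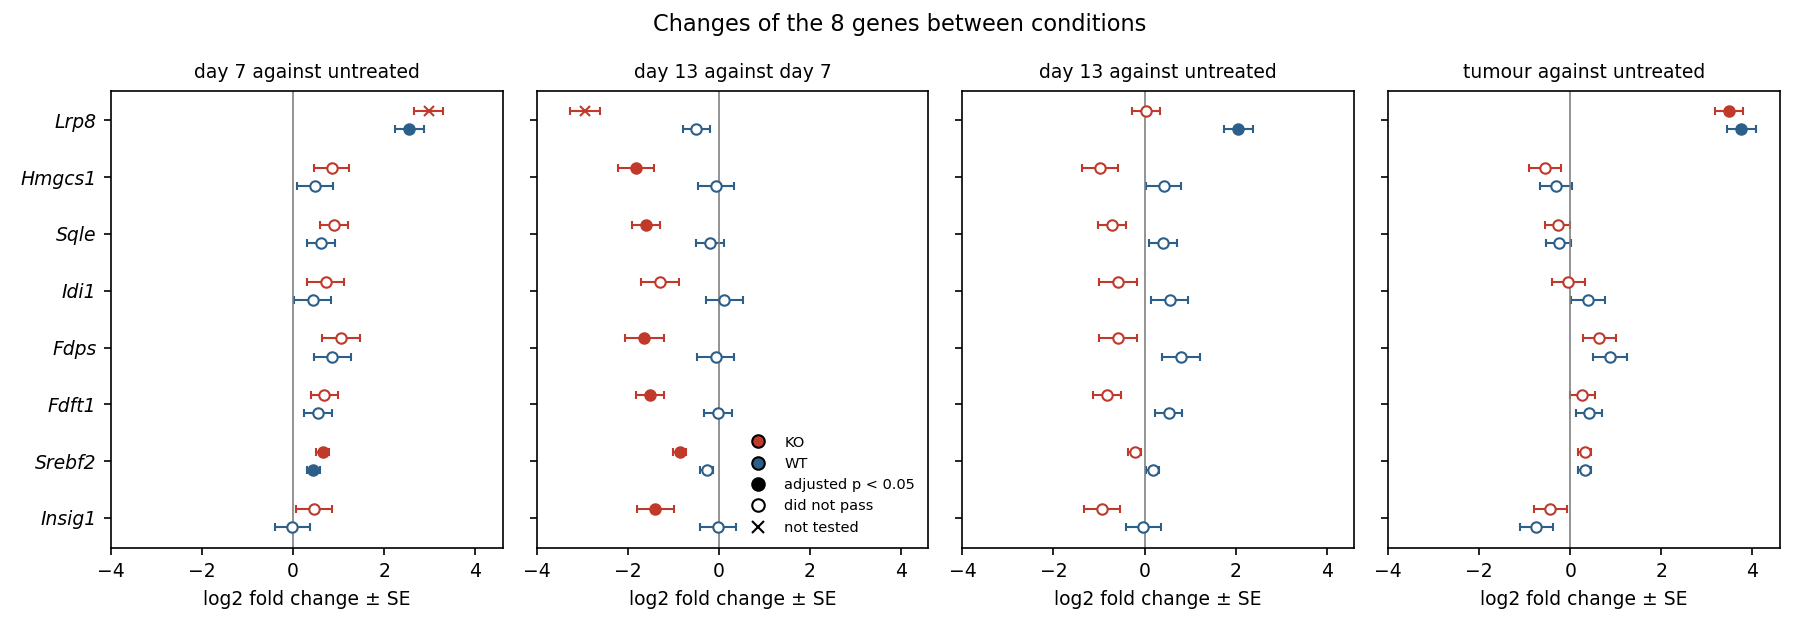
Log2 fold changes with SE (bars) of the 8 genes between conditions, KO above WT for each gene, with filled points for an adjusted p under 0.05. Crosses mark Lrp8 in the 2 KO comparisons with day 7, which carry no test. Lrp8 passes in tumours in both genotypes and in WT also at day 7 and day 13 against untreated colon, and the 7 cholesterol genes move most between day 7 and day 13 in KO.

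In untreated colon no difference between KO and WT passed the test in the 8 genes. Estimates of KO against WT ran from -0.22 for Insig1 to 0.35 for Lrp8, 0 of 8 passed (0 at an unadjusted p under 0.05, 0 with DESeq2), where 0.011% of all genes passed, and the libraries of all 8 genes overlapped, while those of 17.9% of all genes did not. Averaged over untreated and day 13 colon, the difference of KO from WT was -0.66 ± 0.22 for Lrp8 (adjusted p = 0.234). There 0 of 8 passed (3 at an unadjusted p under 0.05, 0 with DESeq2), and 0.011% of all genes did.

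In tumours Lrp8 stood far above untreated colon in both genotypes and none of the 7 cholesterol genes passed the test. Lrp8 was higher in KO tumours than in untreated KO colon by 3.48 ± 0.31 on the log2 scale (adjusted p = 4.16e-07), or 11.2-fold, and in WT tumours than in untreated WT colon by 3.75 ± 0.32 (adjusted p = 1.89e-07), or 13.5-fold. It passed in all 14 alternatives of each. It was the single call of 8 in each genotype, in a comparison where 49.9% of all genes passed in KO (26.4% higher) and 48.8% in WT (27.6% higher), so a call alone says little here. The other 7 genes had estimates from -0.55 (Hmgcs1) to 0.64 (Fdps) in KO and from -0.74 (Insig1) to 0.86 (Fdps) in WT, with an adjusted p of 0.0634 or more. Without untreated KO replicate 3, Fdps, Fdft1 and Srebf2 passed as higher in KO tumours beside Lrp8, and without untreated WT replicate 2 Insig1 passed as lower in WT tumours.

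Tumour libraries lay wholly above untreated ones for Lrp8 and Srebf2 in KO, where 32.6% of all genes did, and for Lrp8, Fdps, Fdft1 and Srebf2 in WT, where 33.2% did. Tumours also differ from colon in their cells, as the smooth muscle markers show, and the part of this in the result was not tested. Between genotypes none of the 8 genes passed the test in tumours. In this fit of 6 libraries Axin1 itself did not pass, at -1.60 ± 0.11 on the log2 scale (SE, adjusted p = 0.0866). A lack of calls between genotypes therefore says little here. Estimates of KO against WT ran from -0.28 for Idi1, the single gene whose KO libraries all lay below the WT libraries, as did those of 5.07% of all genes, to 0.115 for Sqle, and 0 of 8 passed (0 at an unadjusted p under 0.05, 0 with DESeq2), as did 0% of 17245 genes. The genotype difference in tumours minus that in untreated colon was -0.27 ± 0.41 for Lrp8 (adjusted p = 0.874), and 0 of 8 passed there (0 at an unadjusted p under 0.05, 0 with DESeq2), as did 0% of 19056 genes.

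Among 12 other receptors of the family and adaptors tested, Lrp5 was lower and Lrp1 and Lrp6 were higher in KO colon at day 13 than at day 7, where 12.8% of all genes changed. Lrp5 averaged 61.8 CPM at day 13, against 92.7 CPM at day 7 (-0.58 ± 0.16, adjusted p = 0.0285), Lrp1 356 CPM, against 231 CPM (0.63 ± 0.17, adjusted p = 0.0239), and Lrp6 252 CPM, against 152 CPM (0.73 ± 0.17, adjusted p = 0.01). Lrp5 was lost without any single library of these groups other than day 7 KO replicate 2, and of the 3 calls 0 were left without day 7 KO replicate 3 and 1 without the 3 libraries that stood apart, without day 13 KO replicate 1 or without day 7 KO replicate 1. Vldlr, the closest relative of Lrp8, which also binds reelin, did not pass in any comparison tested.

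Among ligands and partners of Lrp8, Selenop carries selenium to LRP8-bearing cells. Its level was lower at day 7 and in tumours than in untreated colon, and higher in KO than in WT at day 13. In these comparisons Lrp8 went the other way, but at day 7 Selenop was much the same in both genotypes. A link between these genes was not tested. Selenop averaged 410 CPM in KO colon at day 7 and 1087 CPM in untreated KO colon (-1.40 ± 0.26, adjusted p = 0.00279), and 395 CPM in WT colon at day 7 and 1029 CPM in untreated WT colon (-1.44 ± 0.26, adjusted p = 0.0031). At day 13 Selenop averaged 1482 CPM in KO libraries, against 656 CPM in WT libraries (1.18 ± 0.26, adjusted p = 0.0279). Tumours averaged 88.9 CPM in KO and 93.2 CPM in WT, a log2 difference from untreated colon of -3.61 ± 0.37 in KO (adjusted p = 1.02e-06) and -3.47 ± 0.36 in WT (adjusted p = 1.09e-06). Reln, which encodes reelin, averaged 2.19 to 5.07 TPM over the 8 groups, and Dab1, the adaptor that relays its signal in neurons, 0.08 to 0.83 TPM. At day 13 Apoe and Dab2 were lower in KO, with 68.5 and 7.36 CPM in KO libraries, against 176 and 20.1 CPM in WT libraries (adjusted p = 0.0404 and 0.0409), beside the lower macrophage markers given above. None of the 11 genes of this list passed between KO and WT at day 13 with Ddx3y as a covariate, without the 3 libraries that stood apart, or without any 1 of the day 13 libraries other than WT replicate 2.

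The genes most like Lrp8 over the 24 libraries were sought among 7946 genes by the root mean square difference of centred log2(CPM + 1) levels. Rrm2, a subunit of ribonucleotide reductase, was nearest at 0.38, followed by Mybl2 at 0.52, Slc7a5 at 0.54, Mtap at 0.58 and Mcm3 at 0.59. Nearest to the mean of the other 7 genes were Mvk at 0.17, Cyp51 at 0.18, Hsd17b7 at 0.19 and Aacs at 0.24. Within the set, Hmgcs1 and Sqle were closest at 0.14, and Lrp8 lay 0.96 (Fdps) to 1.43 (Insig1) from the others. These distances describe libraries that share tissue and treatment and carry no test.

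Markers of dividing cells moved in part with Lrp8. The 9 genes, led by Mki67 and Top2a, were above 0 in every library and summed to 178, 210 and 543 CPM in untreated KO colon and 529, 505 and 323 CPM in untreated WT colon. At day 7 they summed to 1193, 1103 and 764 CPM in KO and 814, 390 and 474 CPM in WT. At day 13 KO had 275, 460 and 341 CPM and WT had 448, 456 and 350 CPM. The 2 genotypes overlapped in these sums at day 13, where Lrp8 did not overlap, and in WT colon the sums overlapped between day 7 and untreated, where Lrp8 did not. Tumours had 1125, 966 and 953 CPM in KO and 817, 816 and 812 CPM in WT. The part of dividing cells in the Lrp8 levels was not tested.

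**Figure D5:**
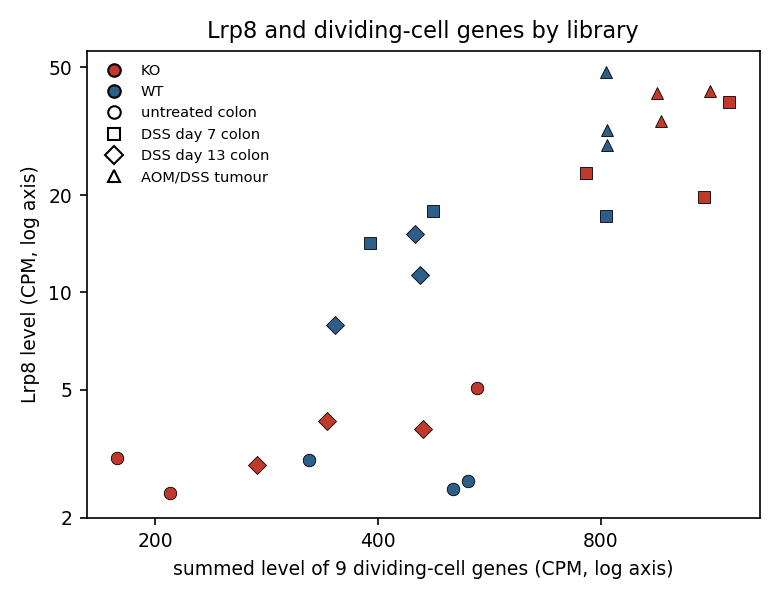
Lrp8 level against the summed level of 9 dividing-cell genes in each of the 24 libraries, both in CPM on log axes, with colour for genotype and shape for condition. Between sums of 350 and 529 CPM, WT libraries of day 13 and day 7 lie at 7.93 CPM of Lrp8 or more, while 2 untreated WT libraries and 1 KO library of day 13 lie at 3.77 CPM or less.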

How the data were processed

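The submitters' processing notes name STAR 2.7.6a, RSEM 1.3.1 and GRCm38. Each library has its own table, in which the authors deposited, for every gene, its expected count and its TPM, per the file headers. RSEM estimates the expected count by sharing reads between the genes they fit, and 26.0% to 28.3% of the values above 0 per library were not whole. Neither the annotation release nor the strand setting is given in the sources used here. Symbols were found for 55141 identifiers, and positions are from GENCODE M21.

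The 8 genes, all lists, the naming rule and the tests were chosen with earlier results of these data known. Genotype, treatment and day in the labels gave the groups. Replicates are described as biological and were numbered in accession order. Between the 24 pairs of replicates the chi-square per gene was 15.95 to 197.8, where sampling alone gives about 1, so none was a copy of another.

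Expected counts were rounded and tested with edgeR 4.0.16 (R 4.3.3; TMM, default filter with minimum count 10 and minimum total 15, robust quasi-likelihood F test), with Benjamini-Hochberg adjustment over all genes tested. Colon comparisons used 18 libraries in a single fit (18102 genes), KO against WT tumours 6 libraries (17245 genes) and tumours against colon all 24 (19056 genes). The script was tested on simulated data. An SE is the fold change divided by the square root of F. Lists are given by counts and medians, with no set test, and leave out 3 genes that are not reported here. Named were the 8 genes, Axin1, up to 4 genes per list with the smallest p among those that passed, up to 5 genes nearest to Lrp8 and to the mean of the others, and the 2 leading markers of a list. Other called list genes, and genes given to show a family or ligand, were named once their values had been seen.

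The alternatives tried were DESeq2 1.42.0, RLE size factors, no filter, a stricter filter (1 CPM in 6 libraries, 3 for tumours), only the groups compared, Ddx3y as a covariate, 2 sets of libraries left out, and leaving out each single library.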

Additional observations from a re-analysis of the deposited data

Results flagged for a closer look

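Lrp8 is listed because its genotype difference turned round between day 7 and day 13. At day 7 every KO library (19.8 to 39.0 CPM) lay above every WT library (14.2 to 17.9 CPM), with a log2 ratio of means of 0.74, and at day 13 every KO library (2.91 to 3.99 CPM) lay below every WT library (7.93 to 15.2 CPM), with a ratio of -1.69. The day 13 ratio minus the day 7 ratio was -2.43 on the log2 scale. This difference was not tested, since Lrp8 was chosen for its day 7 value. At day 13 the 3 KO libraries carried Xist and the 3 WT libraries Ddx3y, so sex and genotype cannot be told apart in that part of it.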

How the results depend on the processing

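Of the 7 cholesterol genes, 6 were called from day 7 to day 13 in KO colon, 4 to 7 in the other settings and 4 to 5 with a library left out. The 2 calls of KO against WT at day 13 became 5 with DESeq2, 1 with no filter on low counts and 0 with Ddx3y as a covariate, with only the groups compared and without the 3 libraries that stood apart (untreated KO replicate 3, day 13 WT replicate 3 and day 13 KO replicate 1). With a library left out they became 0 to 1. At day 7 against untreated colon, the single call among the 7 in KO became 2 with DESeq2, 0 with Ddx3y and without the 4 libraries whose Illumina sample number repeats within colon (untreated WT replicate 2, untreated KO replicate 2, day 7 WT replicate 2 and day 7 KO replicate 3), 5 without the 3 libraries that stood apart and 1 to 5 with a library left out. The 2 calls in WT became 1 with no filter, with Ddx3y, with only the groups compared and without the 4 libraries, and 1 to 2 with a library left out. The single call at day 13 against untreated WT colon became 0 with only the groups compared and without the 4 libraries, and stayed at 1 with any library left out. For tumours against untreated colon, the single call in KO became 3 without the 3 libraries and 1 to 4 with a library left out (4 without untreated KO replicate 3). In WT it became 2 with only the groups compared and without the 4 libraries, 3 without the 3 libraries and 1 to 2 with a library left out. For the genotype difference at day 13 minus that in untreated colon, the count of 0 became 1 with DESeq2 and 0 to 1 with a library left out (1 without day 13 WT replicate 2 or untreated KO replicate 2). The other counts of 0 stayed at 0 in all settings. No called gene changed sign. The cause of these changes was not tested.

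Calls over all genes moved more. KO against WT at day 13 gave 455 calls, 1 with Ddx3y and 1380 without day 13 WT replicate 2. Day 13 against day 7 gave 2321 calls in KO (1358 to 3603) and 11 in WT (0 to 751, the highest with DESeq2), so the share of genes called in WT depends on the tool. No paired analysis was possible because the labels carry no replicate numbers shared between groups. With 3 libraries a group and Lrp8 at 2.40 to 5.05 CPM in untreated colon, small differences of Lrp8 were not detectable there.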

Other observations

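Of 10 genes of fatty acid synthesis, which SREBP-1 mainly governs, 4 were lower in KO colon at day 13 than at day 7, where 8.61% of all genes were lower, and none was higher, with a median of -0.77 on the log2 scale, against 0.02 for all genes: Fasn, the fatty acid synthase, fell by 1.57 ± 0.20 (SE, adjusted p = 0.000186), the desaturases Scd1 by 1.37 ± 0.26 (adjusted p = 0.00264) and Scd2 by 1.42 ± 0.33 (adjusted p = 0.0103), and Acaca by 0.91 ± 0.22 (adjusted p = 0.0136). Without day 13 KO replicate 1 the count was 2, and in WT colon 0 of the 10 passed (2 at an unadjusted p under 0.05, 0 with DESeq2). Of 10 other genes of SREBP control, 1 was lower and 1 higher in KO colon at day 13 than at day 7. There 12.8% of all genes changed, and the median of the 10 was 0.09, so the count says little of them as a set. Srebf1, which encodes SREBP-1, fell by 1.08 ± 0.19 (adjusted p = 0.00156) and Mylip, a ubiquitin ligase, was higher by 0.98 ± 0.27 (adjusted p = 0.029). At day 13 Fasn and Scd1 were lower in KO than in WT, with log2 differences of -0.996 ± 0.197 (adjusted p = 0.0195) and -1.31 ± 0.26 (adjusted p = 0.0186), and neither passed with Ddx3y as a covariate, without the 3 libraries that stood apart, without WT replicate 1 or without KO replicate 1 or 3, and 1 of the pair passed without KO replicate 2.

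In tumours, cholesterol efflux was counted as well. Of 16 efflux and transport genes, 3 were higher and 3 lower in KO tumours than in untreated KO colon, and 5 higher and 3 lower in WT, where 49.9% and 48.8% of all genes passed, so the count is near that of all genes. Without untreated KO replicate 3 the counts in KO were 5 and 5. Abca1, the main exporter of cellular cholesterol, was higher by 1.92 in KO (adjusted p = 0.000922) and 2.06 in WT (adjusted p = 0.000535), and Abcg1 by 1.66 in KO (adjusted p = 0.000268) and 1.73 in WT (adjusted p = 0.00019). Nr1h3, which encodes the sterol sensor LXR-alpha that switches both on, was lower, with -1.60 in KO (adjusted p = 2.74e-05) and -1.38 in WT (adjusted p = 9.41e-05). Macrophage markers, cells that also express these genes, summed to 198 to 286 CPM in KO tumours and 63.0 to 96.4 CPM in untreated KO colon, and to 214 to 357 CPM in WT tumours and 94.3 to 109 CPM in untreated WT colon, and their part was not tested. Among the 14 other enzymes of synthesis, 1 was higher (Tm7sf2) and 3 were lower (Dhcr7, Ebp, Msmo1) in KO tumours, and Dhcr7 alone was lower in WT tumours. Without untreated KO replicate 3 the counts in KO were 4 higher and 2 lower, without untreated KO replicate 1 or 2 none was higher, and without WT tumour replicate 3 none was lower in WT.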
